A study of Homo sapiens with 12 samples.

Results

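The set described here is a group of human zinc finger genes in C28/I2, an immortalised human chondrocyte line. Their symbols begin with ZSCAN or ZKSCAN and a number, or are ZFP followed by a number alone, with ZFP36 left out. Of 19215 gene symbols in the authors' deposited table, 45 matched, and all 45 had a value in each of its 3 comparisons. They were 21 ZSCAN, 7 ZKSCAN and 17 ZFP genes, all protein coding. The set is defined by symbols, but it was proposed with the results of these comparisons known, so its counts and medians are given as a description and not as tests.

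RNA was sequenced from 12 samples in 4 groups of 3, all harvested at 48 h. Controls, the DMSO group, were given 0.5% DMSO. Cells of the SDF1 group were given SDF-1α, the CXCR4 ligand also called CXCL12, at 50 nM. The SDF1_AS4 group received 50 nM of the same chemokine and 10 µM astragaloside IV, a triterpenoid saponin of Astragalus root, and the SDF1_SKHS group received 50 nM of it and SKHS, a formula of traditional Chinese medicine, at 1%. The study asked whether natural products that block CXCR4 also block signalling by its ligand. DMSO is named only for the DMSO group and no vehicle for either product, so effects of SDF-1α or of a product cannot be told apart from those of a solvent. The labels do not say whether the samples of a group were separate cultures, and the p-values reflect the spread among these 12 samples of 1 line only, which may be technical. For each gene and comparison the deposited table gives a p-value, its q-value and a log2 fold change. It holds no value per sample, so depth is unknown, levels of these genes are not known, and neither chondrocyte markers nor single libraries could be checked. A value after ± is an implied standard error on the log2 scale, obtained by dividing the absolute log2 fold change by the quantile of the normal distribution at its p-value. Genes whose adjusted p was under 0.05 in the authors' DESeq2 test with Benjamini-Hochberg adjustment are called changed, and those whose implied standard error was 0.3 or less are called precisely measured.

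Tandem C2H2 zinc fingers bind DNA, each finger reading a few bases. In ZSCAN and ZKSCAN proteins they follow a SCAN domain, a helical module through which these vertebrate factors pair with themselves and with each other. ZKSCAN proteins also carry a KRAB domain, which in most zinc finger proteins that hold one recruits the corepressor TRIM28 and the histone methyltransferase SETDB1. The ZFP symbols form no domain class: they were given after mouse genes, and include KRAB proteins, proteins of fingers alone and a few well-known regulators of stem cells and imprinting. The protein sequences gave a check of this division. Each member's first 150 residues, translated from GENCODE 29 transcripts, were aligned to those of the SCAN-named members, and the median alignment score was at least 118 for all 28 ZSCAN and ZKSCAN genes and at most 60.5 for the 17 ZFP genes. The highest of the ZFP genes was ZFP69. Its best single score was 96, to ZSCAN1 (40.0% identity over 60 residues), beside 46 or less for the other ZFP genes. Whether ZFP69 holds part of a SCAN domain was not tested. Fingers were counted by 1 fixed motif with exactly 12 residues between the cysteine pair and the histidine pair. Fingers spaced otherwise were missed, so the finger numbers given here and below may be too low. The number of finger motifs found ranged from 1 in ZFP42 to 25 in ZFP62, with a median of 6 in ZSCAN, 7 in ZKSCAN and 12 in ZFP genes.

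Promoter sequences came from RefSeq (GRCh38.p14, 250 bases before to 50 after the gene start), where 37 of the 45 genes had an entry. ZFP2, ZFP14, ZFP28, ZFP41, ZKSCAN2, ZSCAN5C, ZSCAN16 and ZSCAN26 had none. The 4 promoters shown are those of the genes called both in SDF1 over DMSO and in SDF1_SKHS over SDF1, and capitals mark every match, on either strand, to 10 motifs that were searched. ZFP3 lies at chr17:5078217-5078516 on the plus strand, ZFP62 at chr5:180861227-180861526, ZSCAN29 at chr15:43370994-43371293 and ZSCAN30 at chr18:35290180-35290479, all 3 on the minus strand, and each sequence is written 5′ to 3′ on the strand of its gene.
ZFP3: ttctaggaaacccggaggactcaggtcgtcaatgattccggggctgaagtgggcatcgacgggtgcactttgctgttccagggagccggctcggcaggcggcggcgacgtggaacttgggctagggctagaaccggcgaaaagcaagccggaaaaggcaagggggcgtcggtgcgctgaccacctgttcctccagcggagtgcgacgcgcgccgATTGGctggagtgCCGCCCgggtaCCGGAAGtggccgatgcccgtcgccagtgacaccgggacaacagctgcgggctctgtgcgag
ZFP62: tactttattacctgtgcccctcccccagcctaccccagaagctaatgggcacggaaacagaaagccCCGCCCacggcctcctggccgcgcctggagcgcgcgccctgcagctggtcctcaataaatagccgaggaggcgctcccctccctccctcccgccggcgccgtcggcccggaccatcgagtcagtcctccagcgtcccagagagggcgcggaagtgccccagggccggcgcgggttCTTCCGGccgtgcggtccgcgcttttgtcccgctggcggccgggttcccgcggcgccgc
ZSCAN29: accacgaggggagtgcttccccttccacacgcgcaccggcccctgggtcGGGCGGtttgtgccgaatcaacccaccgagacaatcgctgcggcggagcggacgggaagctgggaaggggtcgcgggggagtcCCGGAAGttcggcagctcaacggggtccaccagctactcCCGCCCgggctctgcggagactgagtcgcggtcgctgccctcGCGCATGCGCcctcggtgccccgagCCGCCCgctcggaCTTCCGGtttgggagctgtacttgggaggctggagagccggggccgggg
ZSCAN30: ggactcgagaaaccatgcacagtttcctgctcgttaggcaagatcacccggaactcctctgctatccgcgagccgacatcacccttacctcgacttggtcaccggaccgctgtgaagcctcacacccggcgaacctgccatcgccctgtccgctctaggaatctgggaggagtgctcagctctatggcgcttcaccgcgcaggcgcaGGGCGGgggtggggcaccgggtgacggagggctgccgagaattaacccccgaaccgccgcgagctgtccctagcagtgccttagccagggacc
The ETS core CCGGAAG began 12 bases before the start in ZFP3, 9 before it in ZFP62, and at 118 before it and at base 2 in ZSCAN29, and had no match in ZSCAN30. The GC box GGGCGG matched in all 4 promoters, CCAAT in ZFP3 alone, and the NRF1 motif GCGCATGC gave a pair of overlapping matches in ZSCAN29, the motif being nearly palindromic.

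Over all 37 promoters the ETS core was present in 15 (40.5%), against 2181 of 14795 promoters of genes in the table (14.7%). By subfamily it was present in 8 of 18 ZSCAN, 4 of 6 ZKSCAN and 3 of 13 ZFP promoters. It was present in 7 of the 9 promoters of members called lower in SDF1 over DMSO and in 8 of 27 of members not called. Over all genes the shares were 17.9% of those called lower, 19.9% of those called higher and 13.3% of those not called. The GC box was present in 64.9% of member promoters against 60.5%, and CCAAT in 32.4% against 36.3%. The E-box CACGTG was found in 1 member promoter (9.08% of all promoters hold it), as was the TATA box, searched as the letters TATAAA (8.92% of all). The YY1 motif AAGATGGC and the E2F motif TTTCCCGC were each found in 1 as well (4.07% and 2.21% of all), and the NRF1 motif GCGCATGC in 2 (4.37% of all). The cyclic AMP response element TGACGTCA and the ATF4 motif TGATGNAA were found in 0 of 37, against 2.70% and 2.42% of all promoters. No motif in this list contains another. The median GC content was 64.0% in member promoters and 63.3% in all. The ETS core was singled out after these shares were seen, and a match says only that the letters are there.

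SDF1 was compared with DMSO to ask what the chemokine changed. In this comparison 10 of the 45 genes fell and 1 rose (22.2% and 2.22%), where 17.5% of all genes tested were called lower and 17.2% higher. In all 24.4% of the members were called, against 34.7% of 18162 genes. The median log2 fold change of the members was -0.22, beside -0.01 over all genes, and 34 of the 45 values lay below 0. Since these values were in view when the set was proposed, nothing is read from the counts. When the p-values were taken from a t distribution (4 degrees of freedom) and adjusted over all genes, 2 of the 11 members passed, ZFP2 and ZSCAN20.

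**Figure D1:**
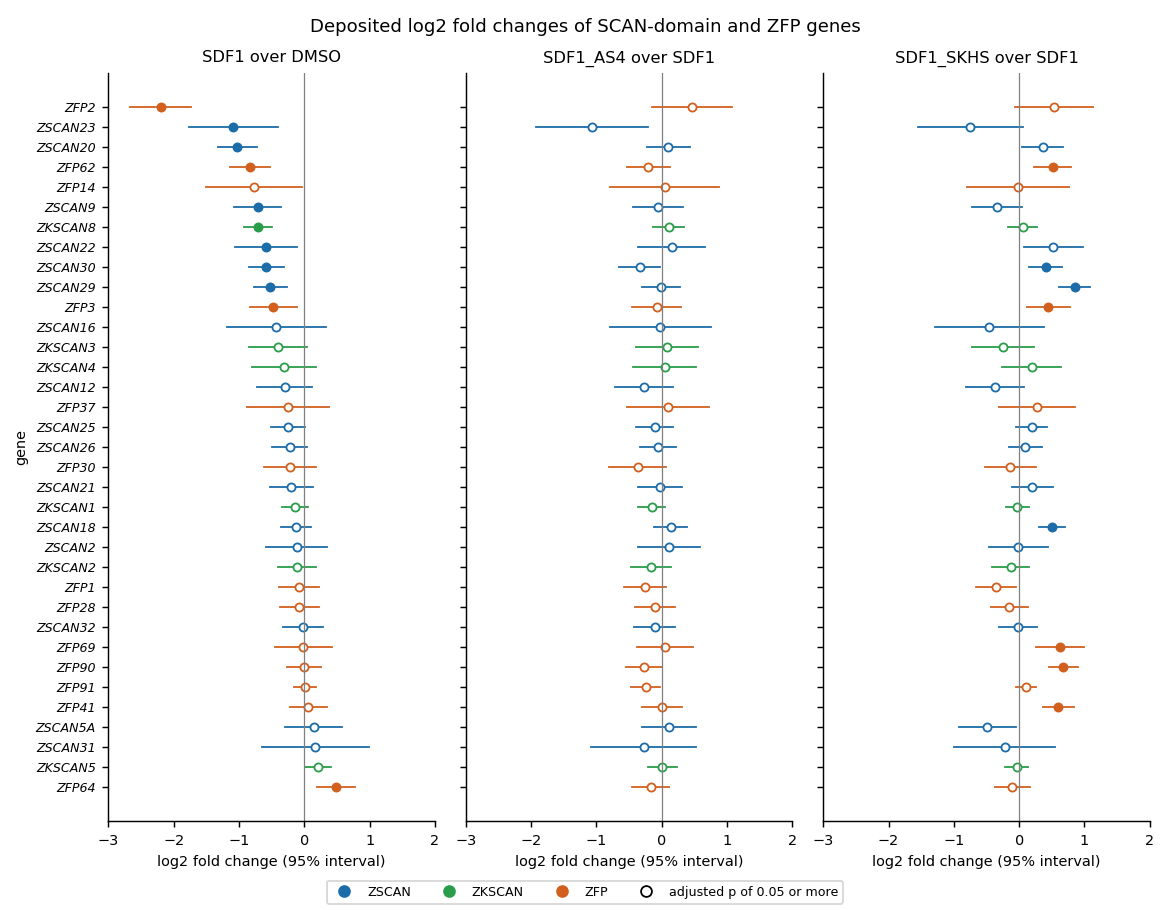
Log2 fold changes in the authors' deposited table for the 35 genes whose implied standard error was 0.5 or less in every comparison, ordered by SDF1 over DMSO, with one panel per comparison. Points are the deposited values, bars their 95% intervals from the implied standard error, and filled points passed an adjusted p of 0.05. Filled points lie left of 0 except ZFP64 in SDF1 over DMSO, none are filled in SDF1_AS4 over SDF1, and all 8 in SDF1_SKHS over SDF1 lie right of 0.

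Among the ZSCAN genes 6 of 21 fell (28.6%) in SDF1 over DMSO in the authors' deposited table, and 0 rose. Of all genes tested 17.5% were called lower and 17.2% higher, 34.7% together. ZSCAN20 (chr1:33472645-33496507, GRCh38, GENCODE 29), with 10 fingers, fell by 1.03 ± 0.15, or 2.04-fold (adjusted p = 2.72e-10 by DESeq2). ZSCAN23, with 5 fingers, fell by 1.09 ± 0.35 (adjusted p = 0.00693, DESeq2), the largest deposited fall of a SCAN-named gene but one measured imprecisely. ZSCAN9 fell by 0.72 ± 0.18, ZSCAN22 by 0.59 ± 0.24, ZSCAN30 by 0.58 ± 0.14 and ZSCAN29 by 0.52 ± 0.13. ZSCAN22 was the nearest of these to the threshold (adjusted p = 0.0432, DESeq2). Once its trends with length and GC content were taken out it was no longer called (adjusted p = 0.0948). ZSCAN21, whose mouse counterpart Zipro1 acts in the proliferation of cerebellar granule cell precursors, stood at -0.20 ± 0.17 and was not called. Of its exonic bases 41.1% lie opposite exons of ZNF3, and whether reads were counted by strand is not stated, so the reads of the pair may not be separable.

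Of the 7 ZKSCAN genes ZKSCAN8 alone was called (14.3%, beside 34.7% of all genes tested). It fell by 0.71 ± 0.11 (1.63-fold, adjusted p = 2.34e-09, DESeq2) in the authors' deposited table. ZKSCAN3, known as a repressor of autophagy and lysosome genes, stood at -0.41 ± 0.23 with a 95% interval from -0.85 to 0.04, so a fall as large as that of ZKSCAN8 lies within its error. It shares 14.4% of its 31-base words with other genes, 6.54% with ZKSCAN4 (-0.31 ± 0.25), the gene that shares most, and how reads were divided between such copies is not stated. ZKSCAN1, known in liver as the host gene of a circular RNA that was not measured here, stood at -0.14 ± 0.10, with an interval from -0.34 to 0.05.

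Among the 17 ZFP genes 3 fell and 1 rose (17.6% and 5.88%), beside 17.5% and 17.2% of all genes tested. The share of ZFP genes called lower is near that of all genes. ZFP2 (chr5:178895894-178933212), a protein of 13 fingers, had the lowest deposited value of the set, -2.20 ± 0.24, or 4.59-fold lower (adjusted p = 2.51e-18, DESeq2). ZFP62 (chr5:180847611-180861285), with 25 fingers the longest array found, fell by 0.84 ± 0.15 (1.78-fold), and ZFP3 (chr17:5078248-5096374) by 0.47 ± 0.18 (adjusted p = 0.0298, DESeq2). ZFP64 (chr20:52051663-52204308), which drives transcription of KMT2A in leukaemia carrying its fusions, was the single member that rose, by 0.49 ± 0.15 (adjusted p = 0.00469, DESeq2). ZFP91, a ubiquitin ligase of the kinase NIK that is degraded through cereblon in the presence of thalidomide analogues, had a deposited value of 0.00 ± 0.09. Its interval from -0.17 to 0.17 was among the narrowest of the set, though 31.9% of its 31-base words also occur in the read-through gene ZFP91-CNTF. ZFP28 stood at -0.07 ± 0.15 and ZFP90 at -0.01 ± 0.13. ZFP82 was at -1.82 ± 0.92 and its neighbour ZFP14 at -0.77 ± 0.37, and neither was called (adjusted p of 0.119 and 0.0990, DESeq2).

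The members best known from stem cells and early embryos could not be resolved. The pluripotency marker ZFP42 (REX1) stood at 0.05 ± 0.91, ZFP57, which keeps DNA methylation at imprinted loci, at 0.36 ± 0.72, and ZSCAN4, a telomere-associated factor of the earliest embryonic stages, at -0.09 ± 0.76 in the authors' deposited table. ZSCAN10, a factor of embryonic stem cells, stood at 1.53 ± 3.33, and ZSCAN5C at 0.65 ± 4.08, with intervals that span several powers of 2 on either side of 0. Errors of this size leave neither the direction nor the size of a change known for these genes. Taken over all 34 members that were not called, deposited values ran from -1.82 (ZFP82) to 1.53 (ZSCAN10), and among those measured precisely from -0.41 (ZKSCAN3) to 0.21 (ZKSCAN5).

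The median implied standard error was 0.215 for the members and 0.152 for all genes in SDF1 over DMSO. An estimate of 2-fold size would have been called in 35 of the 45 members there, in 29 for SDF1_AS4 over SDF1 and in 34 for SDF1_SKHS over SDF1. A true change of that size could still be missed in a member near the limit, because its estimate scatters. Of the 30 members measured precisely in SDF1 over DMSO, 10 were called (33.3%), beside 48.8% of all genes measured precisely. In all, 35 members had an implied standard error of 0.5 or less in every comparison, and the other 10 did not.

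**Figure D2:**
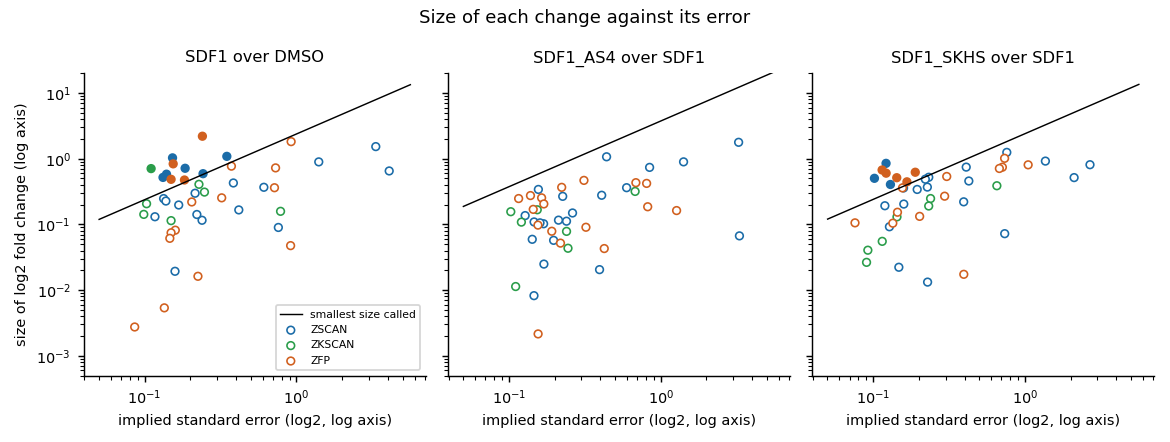
Size of the deposited log2 fold change of each of the 45 genes against its implied standard error, both on log axes, with one panel per comparison and colours for the subfamilies. The line is the smallest size that would be called at a given error. Filled points (called) lie above it, 11, 0 and 8 in the 3 panels, and the line lies highest in the panel of SDF1_AS4 over SDF1.

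Addition of astragaloside IV to the chemokine was examined in SDF1_AS4 over SDF1. None of the 45 genes was called by the authors' DESeq2 test, where 0.358% of 18133 genes were (0.199% higher and 0.160% lower), and 4 members had an unadjusted p under 0.05 (8.89%, beside 16.4% of all genes). The median was -0.06, beside 0.01 over all genes, with 26 values below 0 and 19 above. The 4 members with the unadjusted p under 0.05 had values below 0 in the authors' deposited table. They were ZSCAN23 (-1.07 ± 0.44), ZSCAN30 (-0.34 ± 0.16), ZFP91 (-0.25 ± 0.12) and ZFP90 (-0.27 ± 0.14), with adjusted p from 0.183 to 0.298. Above 0 the smallest p-values belonged to ZFP2 (0.47 ± 0.31), ZSCAN18 (0.14 ± 0.13) and ZKSCAN8 (0.11 ± 0.12).

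Intervals in this comparison describe the difference between the SDF1_AS4 and SDF1 groups, which cannot be told apart from an effect of a solvent. They leave out the trends with length and GC content given below. The 95% interval lay within 1 log2 unit of 0 on both sides for 32 members and within 0.5 for 18, and included 0 for 41. An estimate of 0.5 in size would have been called in 5 members and one of 2-fold size in 29. The few calls in this comparison put the DESeq2 p-value needed for one at 0.000179. Fold changes in this comparison also ran with transcript length and GC content across genes. Over 11720 precisely measured genes of the same libraries, Spearman's rho was -0.533 with length and 0.589 with GC content, given as a description. The members' median transcript was 3562 nucleotides long with 46.1% GC, beside 3145 and 49.5% for all annotated genes, and with both trends removed their median was -0.03.

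Addition of the herbal formula was examined in SDF1_SKHS over SDF1. In this comparison 8 of the 45 genes rose (17.8%) and 0 fell, where 15.8% of all genes tested were called higher and 16.7% lower, 32.4% of 18251 together. The share of members called higher is near that of all genes. An unadjusted p under 0.05 was reached by 2 members with values below 0, and 0 of them passed the authors' DESeq2 test after adjustment. The median over members was 0.11, beside 0.00 over all genes, with 25 values above 0. Of the 8, 5 were ZFP genes, of 17, and 3 were ZSCAN genes, of 21. None of the 7 ZKSCAN genes was called by DESeq2, and 0 of them had an unadjusted p under 0.05. The medians were 0.44 for ZFP, 0.09 for ZSCAN and -0.03 for ZKSCAN genes, a difference between the subfamilies that was not tested. From the t distribution 1 member passed, ZSCAN29.

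ZSCAN29 (chr15:43358172-43371025), with 6 fingers behind its SCAN domain, rose by 0.85 ± 0.12 in the authors' deposited table, or 1.80-fold (adjusted p = 5.13e-11, DESeq2). ZFP90 (chr16:68530090-68576072), a KRAB protein of which a human isoform binds TRIM28 and FOXP3 in regulatory T cells, rose by 0.67 ± 0.11 (1.60-fold, adjusted p = 5.06e-08, DESeq2). ZSCAN18, which is silenced by promoter methylation in several gastrointestinal cancers, rose by 0.50 ± 0.10 (adjusted p = 6.87e-06, DESeq2). Of its exonic bases 25.2% lie opposite exons of ZNF135, so reads of the pair may not be separable. ZFP41, on chromosome 8, rose by 0.60 ± 0.12, and 35.5% of its 31-base words also occur in the overlapping gene AC138696.1, so its value may hold reads of both. ZFP69 (chr1:40477215-40496343), whose mouse counterpart is a diabetes susceptibility gene, rose by 0.62 ± 0.19 (adjusted p = 0.00448, DESeq2). ZFP62 rose by 0.51 ± 0.14, ZSCAN30 by 0.41 ± 0.13 and ZFP3 by 0.44 ± 0.17 (adjusted p = 0.0264, DESeq2), the last being the nearest to the threshold. Below 0, the smallest p-values belonged to ZFP1 (-0.36 ± 0.16), ZSCAN5A (-0.49 ± 0.22) and ZSCAN23 (-0.75 ± 0.41), with adjusted p of 0.0624, 0.0775 and 0.168 in the same DESeq2 test. Of the genes best known from stem cells, ZFP42 stood at 1.01 ± 0.73, ZFP57 at -0.74 ± 0.71 and ZSCAN4 at -0.07 ± 0.74, all uncalled. The autophagy repressor ZKSCAN3 was at -0.25 ± 0.24, ZKSCAN1 at -0.03 ± 0.09 and ZFP64 at -0.10 ± 0.13.

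Across the 3 deposited comparisons 15 members were called at least once and 30 were not called in any. Over all genes 34.7% were called in SDF1 over DMSO, 0.358% in SDF1_AS4 over SDF1 and 32.4% in SDF1_SKHS over SDF1. Combinations of calls were not counted over all genes, so nothing about the set is read from those of the members. Called in both SDF1 over DMSO and SDF1_SKHS over SDF1 were ZFP62, ZSCAN29, ZSCAN30 and ZFP3, each lower in the first and higher in the second. The same 3 SDF1 samples stand in both, with opposite signs, so a low reading of a gene in those samples alone gives both values, and the pair of calls is not independent. Another 7 were called in SDF1 over DMSO alone (ZFP2, ZSCAN23, ZSCAN20, ZSCAN9, ZKSCAN8, ZSCAN22 and ZFP64), and 4 in SDF1_SKHS over SDF1 alone (ZFP90, ZFP41, ZSCAN18 and ZFP69). A call in one comparison and not in the other does not show that the 2 values differ.

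Contrasts that the table does not hold were computed from the sum or difference of deposited log2 fold changes. Their standard error adds both variances, an upper bound where the shared SDF1 samples enter with opposite signs, and their p-values come from a normal test with Benjamini-Hochberg adjustment over all genes. Between SDF1_SKHS and DMSO, where the level in SDF1 cancels from the sum, the 4 genes called in both deposited comparisons were not called. ZFP62 stood at -0.32 with a 95% interval from -0.73 to 0.09, ZSCAN30 at -0.18 from -0.55 to 0.20, ZFP3 at -0.03 from -0.51 to 0.46, and ZSCAN29 at 0.33 from -0.02 to 0.68. These intervals allow differences of up to 0.73 in size. In this contrast 5 members were lower and 3 higher (11.1% and 6.67%), beside 19.1% and 18.1% of all genes and 37.2% together. The 5 lower members were ZFP2 (-1.66 ± 0.39), ZSCAN23 (-1.83 ± 0.54), ZSCAN9 (-1.06 ± 0.27), ZSCAN20 (-0.67 ± 0.22) and ZKSCAN8 (-0.65 ± 0.16). The 3 higher members were ZFP90 (0.67 ± 0.18), ZFP41 (0.66 ± 0.19) and ZSCAN18 (0.37 ± 0.16, adjusted p = 0.0445 in the normal test).

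**Figure D3:**
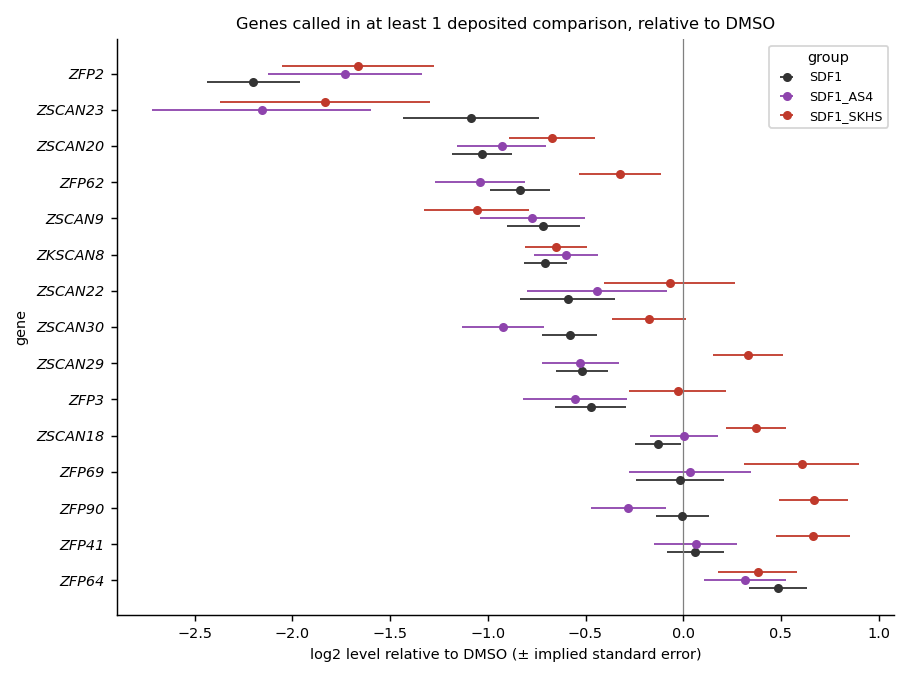
Log2 level relative to DMSO of the 15 genes called in at least 1 deposited comparison, in the SDF1, SDF1_AS4 and SDF1_SKHS groups. Bars are implied standard errors, upper bounds for the product groups. ZFP62, ZSCAN29, ZSCAN30 and ZFP3 lie below 0 in SDF1 and within 0.33 of it in SDF1_SKHS, while ZFP2 lies at -1.66 or lower in all 3 groups.

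In the SDF1_AS4 group 8 members were lower than in DMSO and 0 higher, 17.8% beside 22.4% of all genes tested (11.6% lower and 10.8% higher). The 8 lower members were ZSCAN23 (-2.16 ± 0.56), ZFP2 (-1.73 ± 0.39), ZFP62 (-1.04 ± 0.23), ZSCAN20 (-0.93 ± 0.23), ZSCAN30 (-0.92 ± 0.21), ZSCAN9 (-0.77 ± 0.27), ZKSCAN8 (-0.60 ± 0.16) and ZSCAN29 (-0.53 ± 0.20). All 8 are among the 10 that fell in SDF1 over DMSO, which enters this sum. The direct contrast of the products, SDF1_SKHS over SDF1_AS4, called 5 members higher and 0 lower (11.1%), beside 18.9% of all genes tested (8.5% higher and 10.4% lower). ZFP90 differed by 0.95 ± 0.18 (1.93-fold), ZSCAN29 by 0.86 ± 0.19, ZSCAN30 by 0.75 ± 0.20, ZFP62 by 0.72 ± 0.22 and ZFP41 by 0.60 ± 0.20 (adjusted p = 0.0166 in the normal test), each higher with SKHS. For ZFP2 the difference was 0.07 ± 0.44 with an interval from -0.79 to 0.92, and for ZKSCAN8 -0.05 ± 0.17 with an interval from -0.38 to 0.27, so a difference of up to 0.92 in the first and 0.38 in the second is within the error. Both calls and counts in these computed contrasts turn on the error used: from the t distribution 0 members passed in any of the 3, and with the variance of the shared SDF1 samples taken out 10 did between the products, 14 for SDF1_AS4 over DMSO and 15 for SDF1_SKHS over DMSO. The 2 products were tested at single doses in different units, so the contrast is of these preparations as used.

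Some members are neighbours in the genome. Linking members within 1 Mb gave 6 groups holding 25 of the 45 genes, which lie on 16 chromosomes in all. The largest, 9 genes over 319 kb at chr6:28124560-28443502, lies in the extended major histocompatibility region near histone and transfer RNA genes, and holds ZSCAN16, ZKSCAN8, ZSCAN9, ZKSCAN4, ZSCAN26, ZSCAN31, ZKSCAN3, ZSCAN12 and ZSCAN23. In SDF1 over DMSO, 8 of the 9 deposited values lay below 0, with a median of -0.41, and ZKSCAN8, ZSCAN9 and ZSCAN23 were the 3 that fell. Of all 45 members 34 lay below 0 and 10 fell (22.2%, beside 17.5% of all genes), and no difference between the group and the other members was tested. In the group ZSCAN31 was the exception at 0.17 ± 0.42. In SDF1_SKHS over SDF1 the median was -0.25 with 6 of 9 below 0 and 0 called by DESeq2 (32.4% of all genes were), and in SDF1_AS4 over SDF1 it was -0.06. Neither ZKSCAN8 (0.06 ± 0.11) nor ZSCAN9 (-0.34 ± 0.19) was called with SKHS. In the group on chromosome 7 (chr7:99504651-100065038), ZKSCAN5 stood at 0.21 ± 0.10, ZSCAN25 at -0.25 ± 0.13, and ZKSCAN1 and ZSCAN21 at the values given above, with 0 of 4 called in any comparison. Over all genes 34.7% were called in SDF1 over DMSO, 0.358% in SDF1_AS4 over SDF1 and 32.4% in SDF1_SKHS over SDF1. Counts in groups this small are a description, and nothing about a locus is read from them. The 2 groups of 4 at the end of chromosome 19 held 2 called genes, ZSCAN22 (lower with SDF-1α) and ZSCAN18 (higher with SKHS), and 3 near-copies, ZSCAN5A, ZSCAN5B and ZSCAN5C, which share between 17.6% and 31.2% of their 31-base words with other genes.

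**Figure D4:**
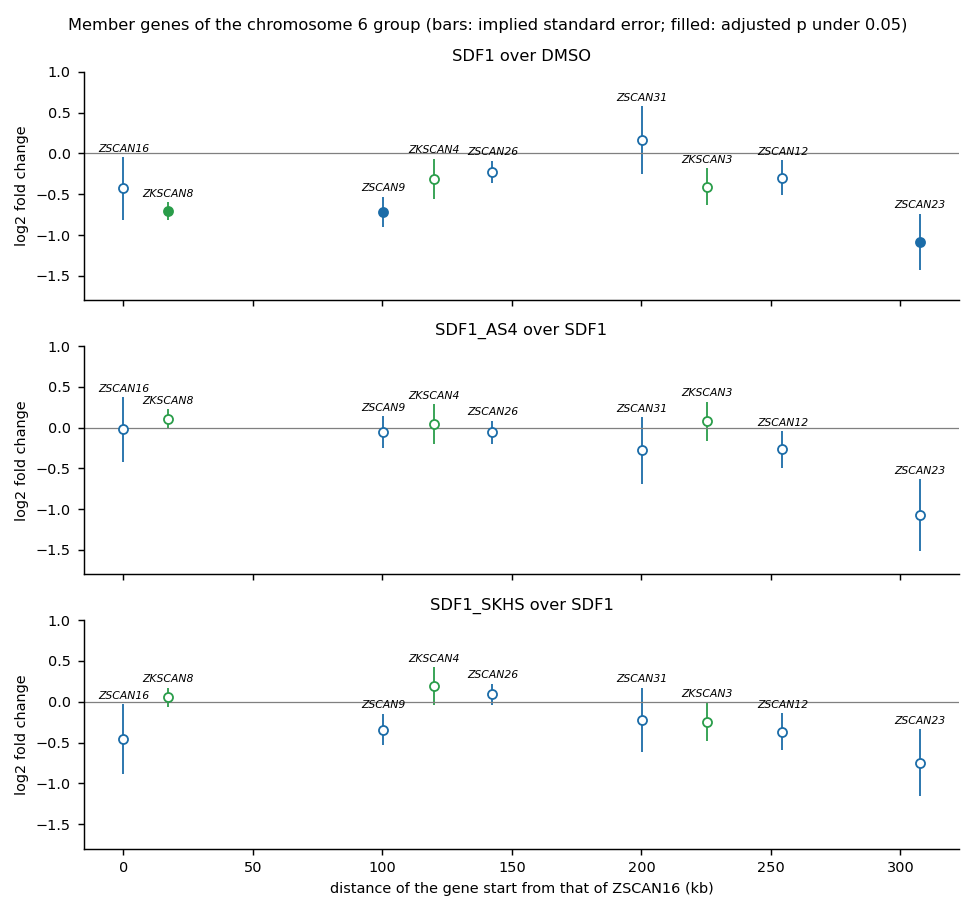
Deposited log2 fold changes of the 9 genes in the chromosome 6 group against the distance of each gene's start from that of ZSCAN16, in kb, with one panel per comparison. Bars are implied standard errors and filled points passed an adjusted p of 0.05. The 3 filled points, ZKSCAN8, ZSCAN9 and ZSCAN23, lie below 0 in SDF1 over DMSO, and no point is filled in the other panels.

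Genes that the symbol rule does not take but that share a domain or pathway were described beside the members. Of 27 SCAN-domain genes with other names, 11 fell (40.7%) and 0 rose in SDF1 over DMSO, with a median of -0.35 in the authors' deposited table. Among all genes 17.5% were called lower and 17.2% higher there. By p-value the first 3 were ZNF202, a repressor of lipid metabolism genes (-1.11 ± 0.15), MZF1, a myeloid zinc finger factor (-1.0 ± 0.16), and ZNF445, which acts with ZFP57 at imprinted loci (-0.74 ± 0.12). In SDF1_SKHS over SDF1, 6 of these 27 rose and 2 fell (22.2% and 7.41%), beside 15.8% and 16.7% of all genes, and ZNF202 was at 0.89 ± 0.15. Of 487 numbered ZNF genes with a value, 161 fell and 17 rose with SDF-1α (33.1% and 3.49%), with a median of -0.29, and the smallest p-values belonged to ZNF331 (-1.74 ± 0.11), ZNF276 (-1.52 ± 0.11) and ZNF692 (-1.52 ± 0.12). In SDF1_SKHS over SDF1, 71 of 488 rose and 55 fell (14.5% and 11.3%), with a median of 0.00. Negative values with SDF-1α were thus not particular to the members. A median below 0 and few calls upward were also found in these lists, and no difference between the lists was tested.

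The corepressor machinery on which KRAB zinc finger proteins act was listed as 18 genes. In SDF1 over DMSO 5 rose and 4 fell, with a median of 0.14. All 18 were precisely measured and 50.0% were called, near the 48.8% of all precisely measured genes. SETDB1 fell by 0.54 ± 0.12, TRIM28 by 0.40 ± 0.10, and the maintenance methylation genes DNMT1 by 0.43 ± 0.08 and UHRF1 by 0.42 ± 0.09, while CBX1 (0.38 ± 0.09) and CBX5 (0.31 ± 0.08), which encode heterochromatin protein 1, rose. In SDF1_SKHS over SDF1, 10 of the 18 fell and 0 rose, with a median of -0.22, among them UHRF1 (-1.26 ± 0.11), DNMT1 (-0.76 ± 0.07), CBX1 (-0.63 ± 0.08) and TRIM28 (-0.50 ± 0.08). The share called was 55.6%, all of it lower. Among all precisely measured genes 46.7% were called in either direction, and the like count is 2890 of 12028 called lower. The difference between the list and all genes was not tested. In SDF1_AS4 over SDF1, 0 of the 18 were called by DESeq2 and 3 had an unadjusted p under 0.05 (16.7%). These shares are near those of all genes, 0.358% and 16.4%.

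**Figure D5:**
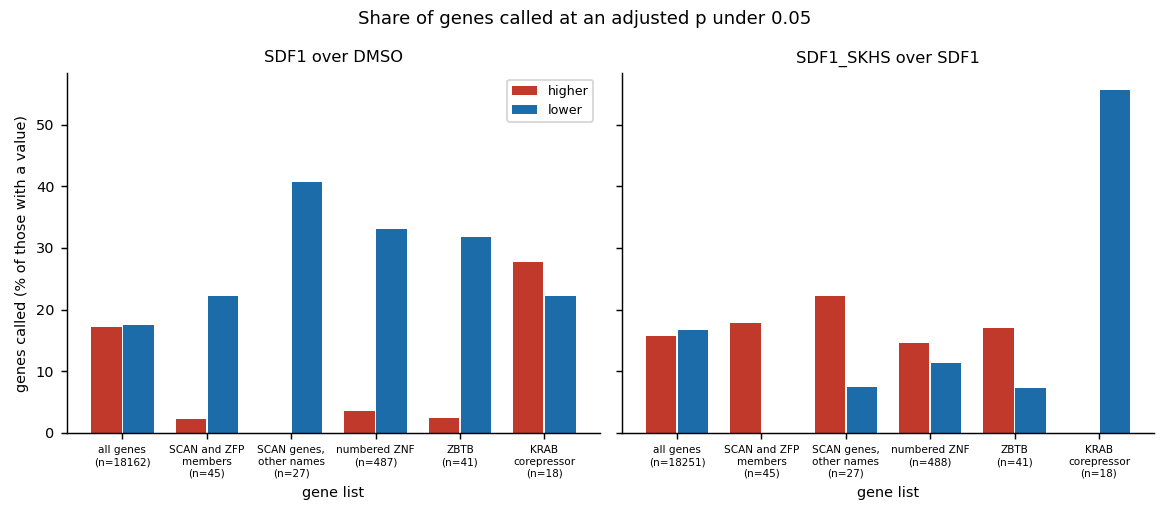
Share of genes called higher and lower at an adjusted p under 0.05 in the authors' deposited table, in percent of genes with a value, for the members, the comparison lists and all genes, with one panel for SDF1 over DMSO and one for SDF1_SKHS over SDF1. The members have 22.2% lower and 2.22% higher in the first panel and 0 lower and 17.8% higher in the second.

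The members were also compared with all annotated genes in features that the symbols do not use. Their transcripts had a median of 5 exons, beside 8, and 14 of 45 (31.1%) had an annotated retained-intron transcript, beside 50.6% of 17463 genes. The 10 members that fell with SDF-1α had a median transcript of 4320 nucleotides and 44.4% GC, and the 34 not called 3514 nucleotides and 47.5%. For the 8 that rose with SKHS the medians were 4480 nucleotides and 45.9%, and for the 37 not called 3477 nucleotides and 46.8%. With length and GC trends removed 11 members were called in SDF1 over DMSO (9 lower, 2 higher) and 9 in SDF1_SKHS over SDF1 (all higher).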

How the data were processed

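Per the file headers, the authors deposited a log2 fold change, a DESeq2 p-value and a q-value per gene for 3 comparisons. Per the submitters' processing notes, Bowtie2 2.2.5, RSEM 1.2.12, DESeq2 1.4.5 and GRCh38.p13 were used. The order of steps, filters and strandedness are not given in the sources used here. The deposited q-value equals a Benjamini-Hochberg adjustment of the p-value, differing by at most 1.29e-14, and is referred to as adjusted p. Fold changes were read as second-named over first-named group, checked on 1576 of 1576 values. No value per sample was used, and depth is unknown. Implied standard errors and 95% intervals assume a Wald test. They, the sums and differences of comparisons, and adjustment over all genes were computed in Python 3.11.15 (Biopython 1.88, pandas 2.3.3, statsmodels 0.14.6, scipy 1.17.1, numpy 2.4.6), checked on simulated data. Transcript features came from GENCODE 29, which holds 18408 of the symbols (95.8%) and all 45 members. Alternatives were another threshold, a t distribution, other sets of genes or members, centring and removal of length and GC trends.

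Members and lists were chosen with earlier results of these data known. The rule for named genes took those called in any deposited comparison, the 3 smallest p-values on each side of both product comparisons, 12 members with a textbook role, and the 3 genes of each list with the smallest p-values in SDF1 over DMSO, or any gene of lists of up to 20.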

Additional observations from a re-analysis of the deposited data

How the results depend on the processing

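When p-values came from a t distribution (4 degrees of freedom), the count of members called was 2 for SDF1 over DMSO, 1 for SDF1_SKHS over SDF1, and 0 for each of the 3 computed contrasts. The heavier tails raise every p-value, so these counts can only fall by construction. With the variance of the shared SDF1 samples taken out of the computed contrasts, as if every group had the same variance, the count was 10 for SDF1_SKHS over SDF1_AS4 (9 higher, 1 lower), 14 for SDF1_AS4 over DMSO (all lower) and 15 for SDF1_SKHS over DMSO (6 higher, 9 lower). Under the other alternatives each count of called members was within 1.5 times its value above. Each median kept its sign and moved by less than the members' median implied standard error. Those alternatives were an adjusted p of 0.01, a limit of 0.5 on the implied standard error of the genes tested or of 0.3 on that of members, centring, removal of length and GC trends, and members with a RefSeq protein, which were all 45. At an adjusted p of 0.01, ZFP3 and ZSCAN22 were lost from SDF1 over DMSO and ZFP3 from SDF1_SKHS over SDF1. With trends removed, ZFP41 was called higher in SDF1 over DMSO (0.42) and ZSCAN20 in SDF1_SKHS over SDF1 (0.38, adjusted p = 0.0483 in a normal test). When only genes within the limit of 0.5 were tested, ZFP1 was called lower in SDF1_SKHS over SDF1 (adjusted p = 0.0463 in the same test). No paired analysis was possible because the deposited table holds no value per sample, and for the same reason no replicate could be left out.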

Other observations

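Other zinc finger families were looked at in the authors' deposited table. Of 41 ZBTB genes, whose BTB domain pairs proteins as the SCAN domain does, 13 fell and 1 rose in SDF1 over DMSO, with a median of -0.32. These are 31.7% and 2.44%, beside 17.5% and 17.2% of all genes. The smallest p-values belonged to ZBTB40 (-0.80 ± 0.10), ZBTB37 (-0.83 ± 0.13) and ZBTB46 (-0.90 ± 0.14). In SDF1_SKHS over SDF1, 7 rose and 3 fell (17.1% and 7.32%), beside 15.8% and 16.7% of all genes, and ZBTB40 was at 0.40 ± 0.11. The ZFP36 family encodes CCCH zinc finger proteins that bind AU-rich RNA and hasten its decay, and shares only its symbol with the members. ZFP36L1 fell by 0.56 ± 0.07 and ZFP36 by 0.51 ± 0.12 in SDF1 over DMSO, and ZFP36L2 stood at -0.06 ± 0.12. None of the 3 was called by DESeq2 in either product comparison, and 0 had an unadjusted p under 0.05 there. Over all genes 0.358% were called in SDF1_AS4 over SDF1 and 32.4% in SDF1_SKHS over SDF1, so nothing is read from 3 genes.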
